A study of Mus musculus with 13 samples.

Results

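A set of 10 genes of lipid uptake, efflux and storage that serve when myelin is cleared was followed in crushed and uninjured sciatic nerves. They are the lipid carriers Apoe and Apod, the lipase Lpl, the lipoprotein receptors Lrp1 and Vldlr, the fatty acid uptake genes Cd36 and Fabp5, the lipid droplet gene Plin2, and the sterol exporters Abca1 and Abcg1. These 10 genes were listed by symbol among the 40787 genes of the count table, with earlier results of these data known. All 10 were found and all 10 passed the filter on low counts in every comparison. In GRCm38 the carriers and the lipase lie on chromosomes of their own, with Apoe (ENSMUSG00000002985) at chr7:19696109-19699188, Apod (ENSMUSG00000022548) at chr16:31296192-31314808, and Lpl (ENSMUSG00000015568) at chr8:68880491-68907448. The receptors are Lrp1 (ENSMUSG00000040249) at chr10:127538161-127621148 and Vldlr (ENSMUSG00000024924) at chr19:27216484-27254231, and the uptake genes are Cd36 (ENSMUSG00000002944) at chr5:17781690-17888801 and Fabp5 (ENSMUSG00000027533) at chr3:10012548-10016607. Plin2 and Abca1 share chromosome 4, with Plin2 (ENSMUSG00000028494) at chr4:86648386-86670060 and Abca1 (ENSMUSG00000015243) at chr4:53030787-53159895, and Abcg1 (ENSMUSG00000024030) lies at chr17:31057675-31117988.

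RNA sequencing was performed on 13 sciatic nerve libraries, labelled C57BL/6, from animals that had been repeatedly backcrossed to C57B6/J per the study's methods. Controls carried floxed Rptor alleles and no Cre, and RaptorKO mice carried the same alleles with a tamoxifen-inducible Cre, which recombines them in SCs (Schwann cells) and removes Raptor, a subunit of the growth-regulating kinase complex mTORC1. Both genotypes received tamoxifen when 2 months old and were operated 2 months later, and nerves were taken at 5 dpc (days post-crush). The groups were control contralateral (n = 3), control injured (n = 3), RaptorKO contralateral (n = 4), and RaptorKO injured nerves (n = 3), where contralateral nerves are the uninjured nerves of the other side. RNA came from the whole nerve after the epineurium was stripped, so that transcripts of SCs, macrophages, fibroblasts, and vessels were measured together. In such bulk samples fewer cells of a type and less RNA per cell cannot be told apart.

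Myelin is rich in cholesterol, galactolipids, and phospholipids. When an axon is cut off, SCs break down their own myelin, and macrophages that enter the nerve take up the remainder. Internalised lipid is split in lysosomes, and cholesterol is then either esterified and stored in droplets or passed by ABC transporters to apolipoproteins, which carry it to other cells. Oxysterols made from excess cholesterol activate the nuclear receptors LXRα and LXRβ, of which Abca1, Abcg1, and Apoe are textbook targets.

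Because members differed widely in their response to injury, the 250 bases upstream of the RefSeq transcription start (GRCm38.p6) are given for the sterol exporter Abca1 and the droplet gene Plin2, which had the largest fold increases after crush, and for the receptor Vldlr, which fell. Capitals mark matches to an E-box (CACGTG, the core bound by the lysosomal regulators TFEB and MITF and by other factors), a nuclear receptor half-site (AGGTCA, read as TGACCT on the other strand), or an LXR-type direct repeat (TGACC and AACC with 6 bases of any kind between them). The AP-1 site TGACTCA was searched as well. The 3 windows are chr4:53159896-53160145 on the minus strand for Abca1, chr4:86670060-86670309 on the minus strand for Plin2, and chr19:27216234-27216483 on the plus strand for Vldlr, written 5′ to 3′ along the gene.
Abca1: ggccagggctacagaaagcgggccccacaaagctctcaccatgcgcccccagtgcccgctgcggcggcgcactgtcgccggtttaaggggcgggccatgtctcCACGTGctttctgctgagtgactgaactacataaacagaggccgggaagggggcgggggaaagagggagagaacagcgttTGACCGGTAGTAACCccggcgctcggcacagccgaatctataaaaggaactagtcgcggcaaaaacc
Plin2: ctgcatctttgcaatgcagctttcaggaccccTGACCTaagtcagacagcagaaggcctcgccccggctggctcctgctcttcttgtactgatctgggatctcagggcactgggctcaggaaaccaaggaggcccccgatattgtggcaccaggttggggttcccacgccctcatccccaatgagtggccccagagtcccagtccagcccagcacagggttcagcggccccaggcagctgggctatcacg
Vldlr: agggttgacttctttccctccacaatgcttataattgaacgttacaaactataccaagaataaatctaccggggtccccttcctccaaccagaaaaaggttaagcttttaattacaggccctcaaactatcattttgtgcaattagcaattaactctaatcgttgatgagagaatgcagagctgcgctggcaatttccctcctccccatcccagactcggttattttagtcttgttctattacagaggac
The Abca1 window held an E-box starting at -147 and the direct repeat starting at -67, counted from the transcription start. The Plin2 window held a half-site at -218, and the Vldlr window held none of the 4 motifs. Of the 7 members with an entry in the RefSeq table, Cd36 held a half-site at -228, and Apoe, Apod, and Lrp1 held none. The Cd36 window precedes a start inside the gene, at chr5:17835896, whereas the annotated gene start is chr5:17888801. Read on both strands, with overlaps between motifs allowed, the direct repeat occurred in 0.213% of 32851 upstream windows of the same length, the E-box in 6.02%, the half-site in 14.0%, and the AP-1 site in 4.46%. The direct repeat pattern asks for AACC in its second part, as the Abca1 window holds, where a perfect half-site (TGACCT) has GACC. Repeats of perfect half-sites are thus missed, and the share covers this pattern only. As the pattern has the form found in the Abca1 window, its share is no measure of how unlikely the Abca1 match was. Such matches are letters in a window and not binding sites.

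Libraries held 8200458 to 13581775 counts, with a median of 10491304. Levels are given as CPM, read counts scaled to a common library size of 1e+06 with TMM factors over all 13 libraries. A gene counts as called where its adjusted p was under 0.05 and its change exceeded 1.2-fold in either direction. Rptor was lower in RaptorKO than in control nerves on both sides, with log2 fold changes of -0.998 (SE 0.12, adjusted p = 5.00e-04) in contralateral and -0.68 (SE 0.15, adjusted p = 0.0167) after crush, both by edgeR's quasi-likelihood test. SC markers summed to at least 31399 CPM in every contralateral library. The 2 libraries of control replicate 3 held 1422 and 1472 CPM of Xist and no more than 1.97 CPM of 4 Y-linked genes together, whereas the other 11 held at most 2.20 CPM of Xist and at least 141 CPM of the Y-linked genes. RaptorKO contralateral 3 held by far the most adipocyte transcripts, as described with Lpl and Cd36.

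The members differed in abundance by orders of magnitude, and their order changed with injury. Per kilobase of transcript, the mean level in control contralateral nerves was 1753 CPM for Apod and 656 CPM for Apoe. Fabp5 and Lrp1 followed at 43.8 CPM per kilobase each, and their ranges over libraries overlapped. Plin2 stood at 13.9 and Abcg1 at 11.7 CPM per kilobase. At the lower end Vldlr (5.43), Cd36 (4.69), Abca1 (4.56), and Lpl (3.77 CPM per kilobase) could not be separated, as each overlapped the next. In control injured nerves Apoe (4796 CPM per kilobase) and Apod (4653 CPM per kilobase) overlapped at the top. Abca1 had moved up to the fourth place at 196 CPM per kilobase, between Fabp5 (309) and Plin2 (144 CPM per kilobase), without overlap with either. In RaptorKO injured nerves Apod (6433 CPM per kilobase) was above Apoe (3294 CPM per kilobase) in range, and Abca1 (148) overlapped Plin2 (130 CPM per kilobase). Together the 10 genes made up 0.497% to 0.734% of all counts in contralateral libraries and 1.80% to 2.53% in injured libraries.

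**Figure D1:**
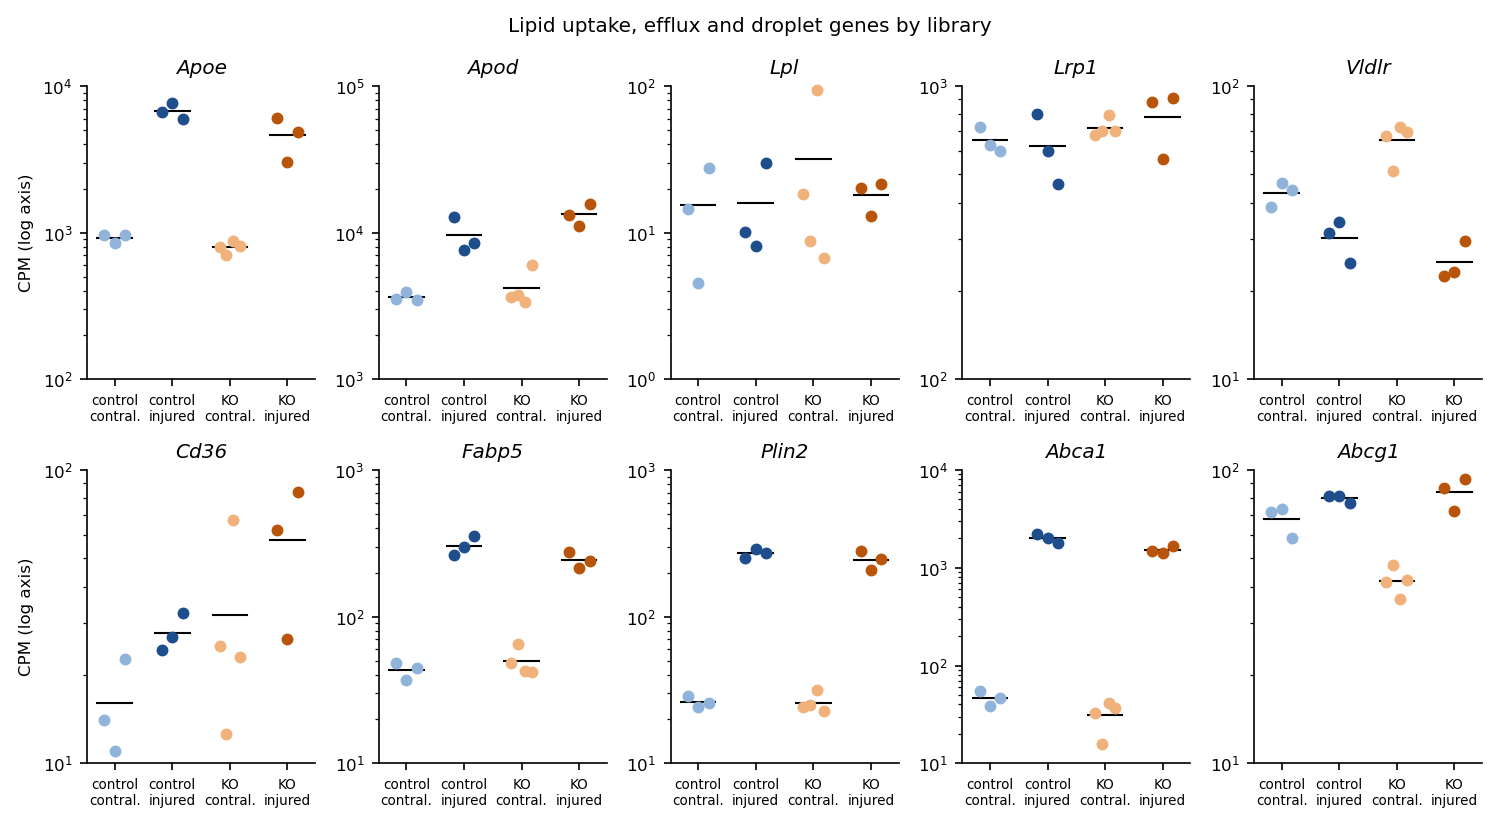
Level of each of the 10 genes (CPM, log axis) in each of the 13 libraries by group (KO, RaptorKO; contral., contralateral), with one point per library and a line at the group mean. Abca1 moved from 15.9 to 55.5 CPM in contralateral to 1405 to 2206 CPM in injured libraries, and Abcg1 was lowest in RaptorKO contralateral nerves.

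The first comparison asked which of these genes respond to crush, by setting injured against contralateral nerves in each genotype. In controls 6 of the 10 members rose and 1 fell, and in RaptorKOs 6 rose and 1 fell as well. Among all tested genes of the controls 65.3% were called, 32.4% higher and 32.9% lower. Among those of the RaptorKOs 58.9% were called, 30.5% higher and 28.5% lower. The share of members called, 70.0% in each genotype, was thus near the background. The median log2 fold change of the members was 1.09 in controls and 1.33 in RaptorKOs, beside -0.002 and 0.028 over all tested genes.

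Of the carriers, Apoe, an apolipoprotein of peripheral nerve and of macrophages, stood at 958, 846, and 967 CPM in control contralateral and at 6639, 7691, and 5930 CPM in control injured nerves. In RaptorKOs it stood at 801, 706, 873, and 805 CPM in contralateral and at 6044, 3043, and 4827 CPM in injured nerves. All injured libraries lay above all contralateral ones, and RaptorKO injured 2 was the lowest of the injured. Apoe rose by a log2 fold change of 2.84 (SE 0.11, adjusted p = 6.87e-10) in controls and 2.54 (SE 0.19, adjusted p = 1.43e-06) in RaptorKOs (edgeR's quasi-likelihood test).

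Apod, a lipocalin that binds arachidonic acid and other small lipids, was the most abundant member per kilobase in contralateral nerves. Levels were 3516, 3924, and 3465 CPM in control contralateral and 12870, 7577, and 8503 CPM in control injured nerves. In RaptorKOs its values were 3649, 3765, 3364, and 6041 CPM in contralateral and 13158, 11083, and 15784 CPM in injured nerves. Contralateral and injured libraries did not overlap, although RaptorKO contralateral 4 was well above the other contralateral nerves. Apod rose by 1.38 on the log2 scale (SE 0.16, adjusted p = 9.59e-06) in controls and by 1.66 (SE 0.20, adjusted p = 4.15e-05) in RaptorKOs (edgeR's quasi-likelihood test).

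Abca1, which loads cellular cholesterol and phospholipid onto lipid-poor apolipoproteins, had the largest change of the 10. It measured 55.5, 38.1, and 46.7 CPM in control contralateral and 2206, 2027, and 1813 CPM in control injured nerves. In RaptorKOs it measured 32.4, 15.9, 41.2, and 36.7 CPM in contralateral and 1467, 1405, and 1676 CPM in injured nerves. The increase was 42.3-fold in controls (log2 5.403, SE 0.16, adjusted p = 1.29e-10) and 48.1-fold in RaptorKOs (log2 5.59, SE 0.28, adjusted p = 7.22e-08, edgeR's quasi-likelihood test).

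Abcg1, which exports cholesterol to mature lipoprotein particles, responded far less than its partner. It had 72.1, 73.8, and 58.6 CPM in control contralateral and 81.8, 81.5, and 77.4 CPM in control injured nerves. In RaptorKOs its values were 41.5, 47.6, 36.4, and 42.3 CPM in contralateral and 87.1, 72.6, and 93.1 CPM in injured nerves. Injured nerves of both genotypes shared one range, whereas RaptorKO contralateral nerves lay below all others. The log2 fold change with injury was 0.21 in controls (SE 0.10, adjusted p = 0.0942) and did not pass the test. In RaptorKOs Abcg1 rose 2-fold (SE 0.12 on the log2 scale, adjusted p = 5.17e-05, edgeR's quasi-likelihood test).

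Plin2, which coats lipid droplets in most cell types, had 28.8, 24.3, and 25.9 CPM in control contralateral and 252, 288, and 273 CPM in control injured nerves. RaptorKO nerves had 24.2, 24.9, 31.5, and 22.8 CPM on the contralateral side and 282, 207, and 247 CPM after injury. The increase was about the same in size, 10.1-fold in controls (log2 3.34, SE 0.10, adjusted p = 1.39e-10) and 9.44-fold in RaptorKOs (log2 3.24, SE 0.14, adjusted p = 2.98e-08, edgeR's quasi-likelihood test).

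Fabp5, an intracellular fatty acid carrier, had 48.0, 37.2, and 44.7 CPM in control contralateral and 262, 298, and 354 CPM in control injured nerves. In RaptorKOs the values were 48.4, 65.0, 42.8, and 41.7 CPM in contralateral and 275, 216, and 241 CPM in injured nerves. Fabp5 rose by 2.79 (SE 0.14, adjusted p = 5.69e-09) in controls and by 2.29 (SE 0.16, adjusted p = 5.99e-07) in RaptorKOs on the log2 scale (edgeR's quasi-likelihood test).

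Cd36, a fatty acid translocase and scavenger receptor, had 14.1, 11.1, and 22.7 CPM in control contralateral and 24.3, 26.9, and 32.6 CPM in control injured nerves. RaptorKO nerves had 25.1, 12.6, 67.5, and 23.0 CPM on the contralateral side and 62.6, 26.5, and 84.1 CPM after injury. Only the control groups were free of overlap. Cd36 rose by 0.79 in controls (SE 0.23, adjusted p = 0.0104), a call that was lost when all 13 libraries shared 1 fit (adjusted p = 0.174). In RaptorKOs the log2 fold change of 0.84 (SE 0.51, adjusted p = 0.176) did not pass edgeR's quasi-likelihood test, and without RaptorKO contralateral 3 it was 1.503 and passed (adjusted p = 0.00529). It also passed with the nerves paired by mouse as a replicate block (log2 0.88, adjusted p = 0.00324, edgeR's quasi-likelihood test).

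Of the receptors, Vldlr, which binds apolipoprotein E-containing particles and Reelin, was the single member that fell. Its values were 38.8, 46.7, and 44.3 CPM in control contralateral and 31.5, 34.4, and 25.0 CPM in control injured nerves. In RaptorKOs its values were 67.6, 51.3, 72.5, and 69.7 CPM in contralateral and 22.5, 23.3, and 29.7 CPM in injured nerves. The 2 sides did not overlap in either genotype. Vldlr fell by 0.54 (SE 0.14, adjusted p = 0.00512) in controls and fell by 1.38 (SE 0.16, adjusted p = 2.52e-05) in RaptorKOs on the log2 scale (edgeR's quasi-likelihood test).

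Lrp1, a large endocytic receptor for apolipoprotein E and for myelin debris, kept one range throughout, from 463 to 913 CPM over all 13 libraries. Its log2 fold change with injury was -0.10 (SE 0.17, adjusted p = 0.633) in controls and 0.12 (SE 0.16, adjusted p = 0.531) in RaptorKOs in edgeR's quasi-likelihood test. Without RaptorKO injured 2 the latter was 0.32 and passed (adjusted p = 0.0237). Lpl, which hydrolyses the triglycerides of lipoproteins, had 4.50 to 27.5 CPM in control contralateral and 8.10 to 29.8 CPM in control injured nerves, and 6.73 to 93.9 and 13.03 to 21.3 CPM in the RaptorKO groups. Its log2 fold changes of 0.03 (SE 0.56, adjusted p = 0.967) in controls and -0.82 (SE 0.77, adjusted p = 0.38) in RaptorKOs did not pass edgeR's quasi-likelihood test.

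**Figure D2:**
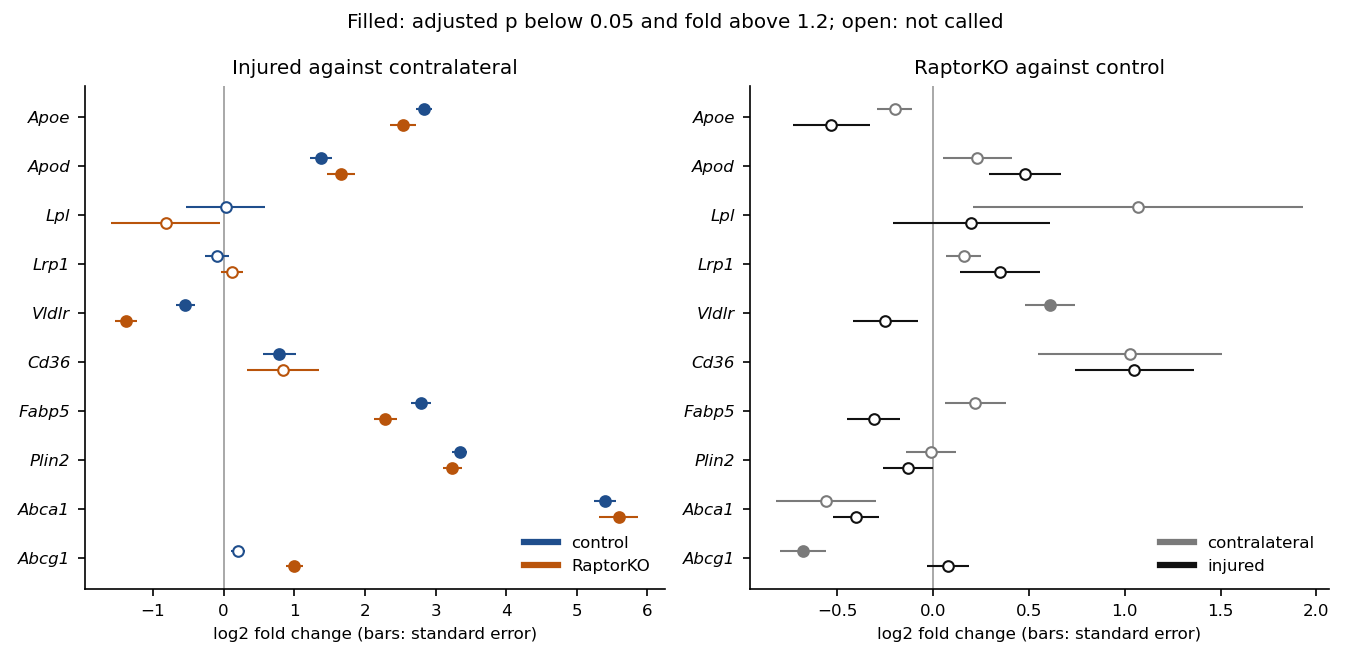
Log2 fold change with its standard error for the 10 genes, for injured against contralateral nerves in each genotype (left) and for RaptorKO against control nerves on each side (right), where filled points passed the test. Injury moved Abca1, Plin2, Apoe, Fabp5, and Apod well to the right in both genotypes, whereas on the right side Abcg1 and Vldlr alone were filled, both in contralateral nerves.

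Macrophage markers moved with the members that rose. Of the 10 markers, 10 rose in controls (median log2 4.17) and 9 in RaptorKOs (median log2 3.24). Their summed level was 98.2 to 131 CPM in control contralateral, 173 to 237 CPM in RaptorKO contralateral, 760 to 1311 CPM in control injured, and 650 to 1573 CPM in RaptorKO injured libraries. No macrophage marker was at 0 in any library. RaptorKO injured 2 had the lowest macrophage sum of the injured libraries, 650 CPM, and also the lowest Apoe, Plin2, Fabp5, and Abca1. Its Apod (11083 CPM) was above that of control injured 2 and 3 (7577 and 8503 CPM). Its Cd36 (26.5 CPM) was above that of control injured 1 (24.3 CPM). Control injured 3, with the next lowest macrophage sum (760 CPM), had the highest Fabp5 (354 CPM). The part of macrophage content in these values was not tested.

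The second comparison asked what loss of Raptor in SCs changed in uninjured nerves. Of the 10 members, Abcg1 was lower and Vldlr higher in RaptorKO than in control contralateral nerves. Among all tested genes 10.2% were called, 4.49% higher and 5.68% lower, beside 2 of 10 members. Abcg1 had 36.4 to 47.6 CPM in the 4 RaptorKO and 58.6 to 73.8 CPM in the 3 control nerves, a log2 fold change of -0.68 (SE 0.12, adjusted p = 0.00577, edgeR's quasi-likelihood test). No RaptorKO library reached the control range, and the two-sided exact permutation test gave the smallest p that 4 against 3 libraries allow. Vldlr had 51.3 to 72.5 CPM in RaptorKO and 38.8 to 46.7 CPM in control nerves, a log2 fold change of 0.61 (SE 0.13, adjusted p = 0.0147). It missed the threshold without control contralateral 1 (log2 0.54, adjusted p = 0.0755, edgeR's quasi-likelihood test).

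None of the other 8 members passed. Abca1 was at 31.5 ± 11.1 CPM (SD, n = 4) in RaptorKO against 46.8 ± 8.65 CPM (SD, n = 3) in control contralateral nerves, with a log2 fold change of -0.56 (SE 0.26, adjusted p = 0.223, edgeR's quasi-likelihood test). Apoe was at 796 ± 68.8 against 924 ± 67.2 CPM (log2 -0.20, SE 0.09, adjusted p = 0.204, edgeR's quasi-likelihood test). Apod, Fabp5, Lrp1, and Plin2 had log2 fold changes between -0.01 and 0.23. Macrophage markers were higher on this side too, with 4 of 6 tested markers called and a median log2 of 0.86. SC markers were lower, with 4 of 6 called (median log2 -0.68), and fibroblast markers higher, with 3 of 6 called (median log2 0.76). Endothelial markers had 0 of 8 called (median log2 0.01), and erythrocyte markers 2 of 4, both higher. The 1 tested skeletal muscle marker was not called. The part of these cell types in the Abcg1 and Vldlr values was not tested.

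Among contralateral nerves, Lpl and Cd36 were highest in the library with the most adipocyte transcripts. Lpl had 14.5, 4.50, and 27.5 CPM in control and 18.2, 8.74, 93.9, and 6.73 CPM in RaptorKO contralateral nerves. RaptorKO contralateral 3 thus held over 5 times as much Lpl as any other library of its group, and its 67.5 CPM of Cd36 was the highest outside the injured RaptorKOs. The 8 adipocyte markers summed to 319 CPM in this library, with 48.6 CPM of the adipokine Adipoq and 32.5 CPM of the droplet coat Plin1. The sum was 0.327 to 84.4 CPM in control contralateral and 0.230 to 22.7 CPM in the other RaptorKO contralateral libraries. RaptorKO contralateral 4, at 0.388 CPM of these markers, held 23.0 CPM of Cd36, and control contralateral 3, at 84.4 CPM, held 22.7 CPM. RaptorKO contralateral 3 also had the highest contralateral sums of endothelial (599 CPM), skeletal muscle (27.4 CPM), fibroblast (10884 CPM), and erythrocyte markers (256 CPM). With all libraries the log2 fold changes were 1.07 for Lpl (SE 0.86, adjusted p = 0.495) and 1.03 for Cd36 (SE 0.48, adjusted p = 0.223), and neither passed edgeR's quasi-likelihood test. Without RaptorKO contralateral 3 they were -0.43 and 0.36. The part of adipocytes or of the other cell types in these Lpl and Cd36 values was not tested.

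**Figure D3:**
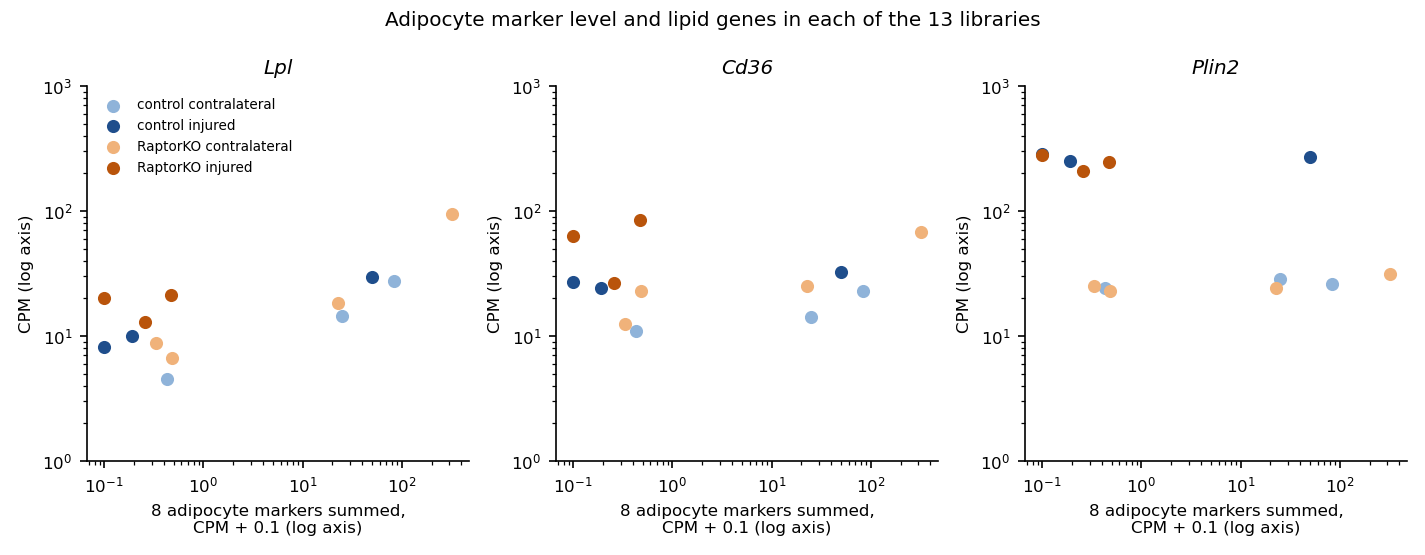
Level of Lpl, Cd36, and Plin2 (CPM, log axis) against the summed level of 8 adipocyte markers (CPM plus 0.1, log axis) in each of the 13 libraries, coloured by group. RaptorKO contralateral 3, at 319 CPM of markers, held the highest Lpl, whereas Cd36 was also high in RaptorKO injured libraries with at most 0.367 CPM of the markers, and Plin2 split by injury.

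The third comparison asked whether injured nerves without Raptor in SCs differed in these genes. None of the 10 members was called between RaptorKO and control injured nerves in edgeR's quasi-likelihood test. Its unadjusted p was under 0.05 for 5 members, beside 2594 of all 12040 tested genes. Among all tested genes 8.54% were called, 4.09% higher and 4.44% lower. DESeq2 called 3 members, beside 672 genes higher and 648 lower of 12040. The exact test of edgeR called 1 member, beside 667 genes higher and 655 lower. Leaving out the filter on low counts let 4 members pass, beside 856 genes higher and 700 lower of 21735. The median log2 fold change of the members was -0.02.

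Abca1 was the one member whose injured groups did not overlap, with 1516 ± 142 CPM (SD, n = 3) in RaptorKO and 2015 ± 197 CPM (SD, n = 3) in control nerves. Its log2 fold change was -0.40 (SE 0.12, adjusted p = 0.0686, edgeR's quasi-likelihood test), and DESeq2 gave an adjusted p of 0.0101. The two-sided exact permutation test gave p = 0.1, the smallest that 3 against 3 libraries allow. Chance alone would separate the groups of a gene at that rate, and the share of all genes so separated was not counted. Apoe had 4638 ± 1510 CPM (SD, n = 3) in RaptorKO and 6753 ± 886 CPM (SD, n = 3) in control injured nerves, with a log2 fold change of -0.53 (SE 0.20, adjusted p = 0.15, edgeR's quasi-likelihood test, and 0.0402 in DESeq2).

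Apod pointed the other way, with 13342 ± 2356 CPM (SD, n = 3) in RaptorKO and 9650 ± 2827 CPM (SD, n = 3) in control injured nerves and a log2 fold change of 0.48 (SE 0.19, adjusted p = 0.152, edgeR's quasi-likelihood test). It was 0.74 and passed without control injured 1 (adjusted p = 0.0186), and DESeq2 gave an adjusted p of 0.0494. Cd36 had 57.7 ± 29.1 CPM (SD, n = 3) in RaptorKO and 27.9 ± 4.27 CPM (SD, n = 3) in control injured nerves. Its log2 fold change of 1.05 (SE 0.31, adjusted p = 0.065, edgeR's quasi-likelihood test) was carried by RaptorKO injured 1 and 3, as RaptorKO injured 2 lay within the control range, and without that library it was 1.40 (adjusted p = 2.93e-04). The exact test of edgeR called Cd36 with all libraries (adjusted p = 0.014).

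Fabp5 (log2 -0.31, SE 0.14), Lrp1 (log2 0.35, SE 0.21), Vldlr (log2 -0.25, SE 0.17), Plin2 (log2 -0.13, SE 0.13), Abcg1 (log2 0.08, SE 0.11), and Lpl (log2 0.20, SE 0.41) had overlapping groups. Of the 10 macrophage markers, 0 were called between injured groups in edgeR's quasi-likelihood test, with a median log2 of 0.17. Endothelial markers were higher in RaptorKO injured nerves, with 7 of 8 called and a median log2 of 0.86, and summed to 496 to 775 CPM against 269 to 413 CPM in controls. Cd36 is also expressed by capillary endothelium. RaptorKO injured 2 had the highest endothelial sum (775 CPM) and the lowest Cd36 of its group (26.5 CPM). RaptorKO injured 1 and 3 had endothelial sums of 496 and 528 CPM and Cd36 of 62.6 and 84.1 CPM. In control injured 1, 2, and 3 endothelial sums were 269, 333, and 413 CPM, and Cd36 was 24.3, 26.9, and 32.6 CPM. The part of endothelial cells in the Cd36 values was not tested. Erythrocyte markers (3 of 3) and fibroblast markers (2 of 6) were higher as well, and 3 of 6 SC markers were lower (median log2 -0.48). Skeletal muscle markers summed to no more than 3.21 CPM in any injured library. Adipocyte markers were at or near 0 in RaptorKO injured libraries, with sums of 0 to 0.367 CPM, and Adipoq was at 0 in 2 of the 3. In control injured 3 they summed to 49.9 CPM, against 0.0917 and 0 CPM in control injured 1 and 2. Lpl had 29.8 CPM in control injured 3, against 10.1 and 8.10 CPM in control injured 1 and 2. The part of adipocytes in these Lpl values was not tested.

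Whether the response to injury differed between genotypes was tested as the interaction over all 13 libraries. It was called for 1 of 10 members, Abcg1, beside 2.47% of all tested genes, 1.07% with a higher and 1.41% with a lower response in RaptorKOs. The injury response of Abcg1 was larger in RaptorKOs by 0.77 on the log2 scale (SE 0.17, adjusted p = 0.0261, edgeR's quasi-likelihood test). Pairing the 2 nerves of a mouse as a replicate block took the call away (0.77, adjusted p = 0.0544, edgeR's quasi-likelihood test). In injured nerves the ranges of Abcg1 overlapped, and the contralateral levels differed. It was also lost, with adjusted p between 0.0555 and 0.0805 in edgeR's quasi-likelihood test, without any 1 of RaptorKO injured 1 or 3, RaptorKO contralateral 1, the injured controls 1, 2, or 3, or the contralateral controls 1 or 2.

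Vldlr had an interaction of -0.86 (SE 0.22, adjusted p = 0.053, edgeR's quasi-likelihood test), just outside the threshold, and passed it in 7 of 18 alternatives, among them the replicate block by mouse (-0.82, adjusted p = 0.0447). Apoe (-0.33, SE 0.25), Fabp5 (-0.52, SE 0.22), Abca1 (0.16, SE 0.33), Plin2 (-0.12, SE 0.18), and Apod (0.26, SE 0.30) were not called. For Lpl (-0.87, SE 1.14) and Cd36 (0.03, SE 0.69) the standard errors were too wide to show a difference of several-fold.

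The other genes of lipid handling were read from a list of 94 in 7 classes, of which 72 to 79 were tested. With injury 31 rose and 31 fell in controls (83.8% of those tested, beside 65.3% of all tested genes, median log2 -0.09), and 28 rose and 25 fell in RaptorKOs (67.1% beside 58.9%, median log2 0.03). Between genotypes 5 were higher and 9 lower in contralateral nerves (19.4% beside 10.2%, median log2 -0.02), and 4 were higher and 9 lower in injured nerves (17.6% beside 8.54%, median log2 -0.06). The interaction was called for 4 of 79, with 1 higher and 3 lower, beside 2.47% of all tested genes.

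Among carriers and receptors, 9 of 14 tested lipoprotein and scavenger receptors rose with injury in each genotype and 4 fell, where 32.4% and 30.5% of all tested genes rose and 32.9% and 28.5% fell in controls and RaptorKOs. Apoc2, the apolipoprotein that activates Lpl, went from 0 to 0.914 CPM in control contralateral to 20.7 to 33.0 CPM in control injured nerves (log2 6.24, SE 0.54, adjusted p = 7.55e-07, edgeR's quasi-likelihood test). Its control contralateral libraries held only 10, 0, and 1 counts, so that the log2 fold change ranged from 5.60 without control contralateral 2 to 8.84 without control contralateral 1. Trem2, a receptor for lipids and apolipoproteins on macrophages, rose from 2.66 ± 0.722 to 118 ± 18.4 CPM (SD, n = 3 each) in controls (log2 5.43) and from 6.35 ± 0.791 (SD, n = 4) to 105 ± 21.4 CPM (SD, n = 3) in RaptorKOs (log2 4.04). The macrophage scavenger receptor Msr1 rose by 3.96 on the log2 scale in controls.

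The droplet coat Plin4 (log2 -3.85 in controls and -5.85 in RaptorKOs) and the myelin fatty acid binding protein Pmp2 (log2 -3.78 and -4.27) fell with injury. Saa3, an acute phase apolipoprotein, had no counts in the 4 RaptorKO contralateral libraries and was at least 12.5-fold higher after injury, with a floor of 3 counts per library.

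Of the LXR genes themselves, neither rose with injury. Nr1h3 (LXRα) changed by -0.72 in controls and -0.58 in RaptorKOs, and Nr1h2 (LXRβ) by -0.74 and -0.63 on the log2 scale, all 4 passing edgeR's quasi-likelihood test. In controls 7 of 9 lipid-sensing transcription factors fell and 0 rose, and in RaptorKOs 2 of 10 fell and 0 rose, beside 32.9% and 28.5% of all tested genes that fell. Among pathway genes picked after their values were seen, Soat1, which esterifies cholesterol, rose by 2.50 in controls and 2.32 in RaptorKOs on the log2 scale, Nceh1, which hydrolyses cytosolic esters, by 2.00 and 1.73, and the lysosomal acid lipase Lipa by 1.54 and 1.13. Lcat, which esterifies cholesterol on lipoproteins, was not tested in controls, and its log2 fold change of -0.36 in RaptorKOs did not pass (adjusted p = 0.381, edgeR's quasi-likelihood test).

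In injured nerves the genes lower in RaptorKOs were led by the monoglyceride lipase Mgll and the acyl-CoA binding protein Dbi. Mgll had 53.3, 68.0, and 42.1 CPM in RaptorKO and 103, 125, and 105 CPM in control injured nerves (log2 -1.01, SE 0.16, adjusted p = 0.00402, edgeR's quasi-likelihood test). Dbi had 159, 165, and 118 CPM against 246, 302, and 333 CPM (log2 -0.98, SE 0.16, adjusted p = 0.00373, edgeR's quasi-likelihood test). Every RaptorKO library lay under every control library for either gene, as the rule for naming them required.

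Stard3 (log2 -0.69, SE 0.12), which transfers cholesterol at late endosomes, and Psap (log2 -0.55, SE 0.11), the precursor of the saposins, were called lower as well. So were 3 genes picked after their values were seen, Gramd1b (log2 -0.67, SE 0.11), which carries cholesterol from the plasma membrane, the lysosomal membrane receptor Scarb2 (log2 -0.61, SE 0.11), and Lipa (log2 -0.58, SE 0.10). Other listed genes of like function did not pass edgeR's quasi-likelihood test, among them the lysosomal sterol carriers Npc1 (log2 -0.26, adjusted p = 0.206) and Npc2 (log2 -0.23, adjusted p = 0.257), Nceh1 (log2 -0.34, adjusted p = 0.119), and Stard4 (log2 -0.04, adjusted p = 0.955). The genes called higher were Ch25h, which makes 25-hydroxycholesterol (14.5 ± 2.44 against 7.98 ± 2.18 CPM, SD, n = 3 each, log2 0.88), the hormone-sensitive lipase Lipe (log2 0.79), the lipid carrier Clu (log2 0.79), and Cyp27a1 (log2 0.61), which makes 27-hydroxycholesterol. The call of Cyp27a1 (adjusted p = 0.0405, edgeR's quasi-likelihood test) held in 6 of 13 alternatives, with adjusted p up to 0.171 in the others. The calls of Ch25h, Lipe, and Clu were each lost without control injured 1, control injured 2, or RaptorKO injured 1, with adjusted p from 0.0639 to 0.179 in edgeR's quasi-likelihood test. Those of Ch25h (adjusted p = 0.0947) and Clu (adjusted p = 0.0654) were also lost without RaptorKO injured 2. With all 13 libraries in 1 fit Lipe (adjusted p = 0.249) and Ch25h (adjusted p = 0.0592) did not pass, nor did Clu (adjusted p = 0.0612) and Ch25h (adjusted p = 0.093) with the replicate number as a block, in edgeR's quasi-likelihood test.

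In contralateral nerves Stard3 was lower in RaptorKOs too, with 21.97, 24.3, 19.9, and 30.4 CPM against 61.3, 43.2, and 41.1 CPM (log2 -0.99, SE 0.18, adjusted p = 0.00661, edgeR's quasi-likelihood test). Further genes lower there were the transporter Abca7 (log2 -0.77, SE 0.12, adjusted p = 0.00341) and the lysosomal cholesterol exporter Npc1 (log2 -0.58, SE 0.11, adjusted p = 0.00962, edgeR's quasi-likelihood test). Beside Abcg1 itself, 4 of 13 tested genes in the class of cholesterol transport and efflux were lower on this side and 0 were higher, beside 5.68% and 4.49% of all tested genes. The receptors Trem2 (log2 1.26, SE 0.28, adjusted p = 0.0202), Sorl1 (log2 1.04, SE 0.23, adjusted p = 0.0182), and Stab1 (log2 0.62, SE 0.16, adjusted p = 0.0363, edgeR's quasi-likelihood test) were higher, on the side where macrophage markers were higher as well. The call of Trem2 was lost without control contralateral 1 or 3 or RaptorKO contralateral 1, that of Sorl1 without control contralateral 1 or 3, and that of Npc1 without control contralateral 1, and leaving out any 1 of control contralateral 1, 2, or 3 or RaptorKO contralateral 2 or 4 took away that of Stab1. Stab1 also missed the threshold with all 13 libraries in 1 fit (adjusted p = 0.115, edgeR's quasi-likelihood test).

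**Figure D4:**
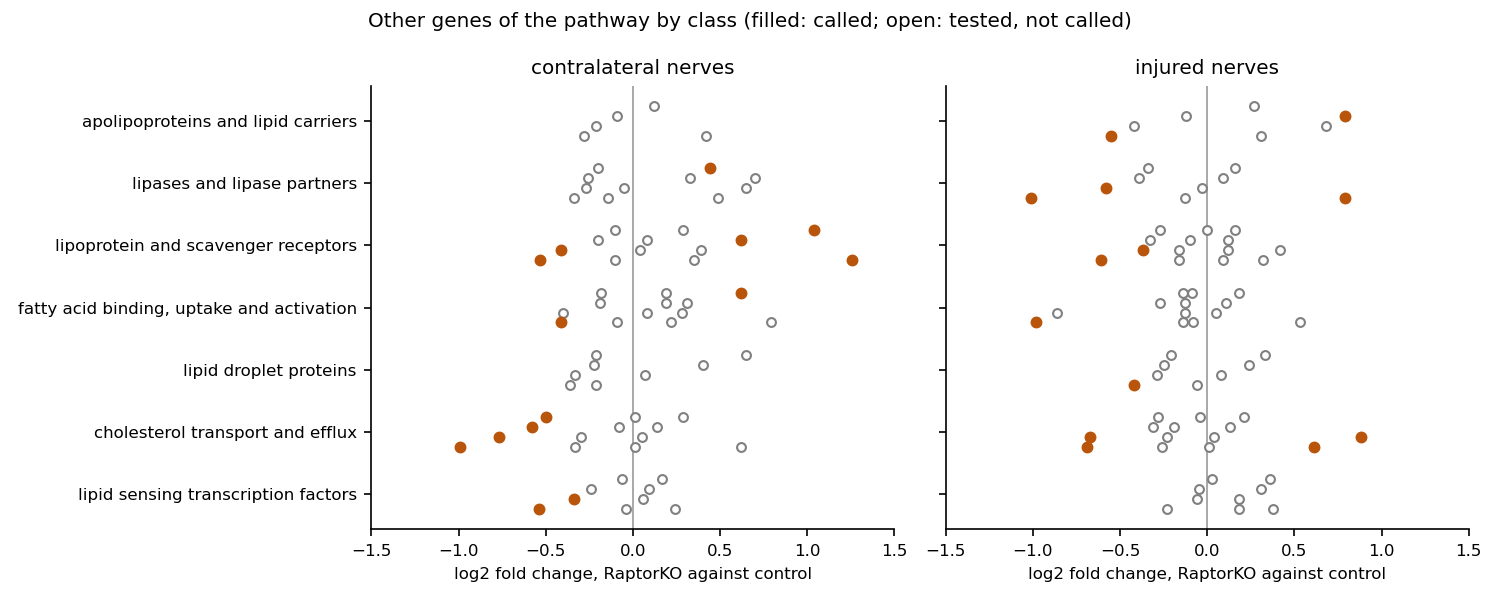
Log2 fold change between RaptorKO and control nerves for the tested genes of the 7 pathway classes, in contralateral (left) and injured nerves (right), with one point per gene and filled points for those called. Called genes of cholesterol transport and efflux lay on the lower side in contralateral nerves and on both sides in injured nerves.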

How the data were processed

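RNA from 13 mouse sciatic nerve libraries was sequenced in 4 groups taken from the sample labels. Per the labels and the study's methods, the authors trimmed the reads with Trimmomatic, quantified genes on GRCm38 with RSEM 1.2.22, and deposited expected counts per gene, which share out reads that match several genes and are not normalized for depth. Here these expected counts were rounded to whole numbers, symbols were assigned by gene ID to 40550 of 40787 genes, and the deposited table was otherwise used as it stands. Strand use in counting is not given in the sources used here.

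Genes with 50 counts or more in at least 2 libraries of a comparison were tested with edgeR 4.0.16 (glmQLFit and glmQLFTest, TMM factors, R 4.3.3), with p-values adjusted after Benjamini-Hochberg across every gene tested. Each comparison was fitted on its own groups, and the interaction on all 13 libraries. These main fits held no term for the mouse. Their p-values for injury and for the interaction thus leave out the pairing of nerves described below. The comparisons share groups and are not independent. Alternatives were DESeq2 1.42.0, edgeR's exact test, median-of-ratios size factors, no count filter, a prior count of 2, 1 fit over all libraries, a replicate block, and leaving out each library. The exact permutation tests compared mean log2(CPM + 1) with SciPy. The steps were tested on simulated data with known changes. The study's text counts the libraries of a group as separate mice. Crush was unilateral and the titles number both nerves alike, so equal numbers within a genotype were taken as the 2 nerves of 1 mouse, whereas across genotypes they are different mice. Deviations of such nerves from their group means correlated at 0.086 to 0.306 in controls and -0.025 to 0.239 in RaptorKOs, and both libraries high in Xist were of control replicate 3.

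All 10 members were named. Of the 94 pathway genes, up to 3 per comparison and direction were named, those with the largest change among called genes with separate groups, or for the interaction the largest among those called. Further pathway genes (Nr1h2, Nr1h3, Soat1, Nceh1, Lipa, Lcat, Gramd1b, Scarb2, Npc2, Stard4, and Cyp27a1) were chosen after their values were seen. A gene that this rule selects is not reported here. The members and lists were chosen with earlier results of these data known. The marker lists were macrophage, adipocyte, skeletal muscle, endothelial, Schwann cell, fibroblast, and erythrocyte.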

Additional observations from a re-analysis of the deposited data

Results flagged for a closer look

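Among 27 combinations of gene and group with 4 libraries, 4 had a library far from the other 3 by Dixon's criterion, where chance alone marks about 1 in 20. All had to lie in RaptorKO contralateral nerves, the only group with 4 libraries. The 27 combinations share these libraries and are not independent. Apod was high in replicate 4 (6041 CPM), and without this library its log2 fold change between contralateral groups was -0.0026 in place of 0.23. Lpl (93.9 CPM) and Lipe (54.7 CPM) were high in replicate 3, the library with the most adipocyte transcripts. Apoc2 had no counts (0.0 CPM) in replicate 3, where the other libraries of the group held at most 0.613 CPM.

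The injury response differed between genotypes by the interaction test for 5 genes. It was larger in RaptorKOs for Abcg1 (0.77 on the log2 scale) and Clu (1.07). It was smaller for Mgll (-1.45), Trem2 (-1.41), and Psap (-0.46). Mgll rose with injury in controls (log2 0.71) and fell in RaptorKOs (log2 -0.72), and its interaction passed in 18 of 18 alternatives. That of Trem2 passed in 17 of 18, and Trem2 began higher in RaptorKO contralateral nerves, where macrophage markers were higher too. Abcg1, Clu, and Psap lost the call in several alternatives each, Clu passing in 7 and Psap in 5 of 18. With the 2 nerves of a mouse as a replicate block, edgeR's quasi-likelihood test gave adjusted p = 0.0544 for Abcg1, 0.0745 for Clu, and 0.0568 for Psap.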

How the results depend on the processing

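Rises of Abca1, Plin2, Apoe, Fabp5, and Apod and the fall of Vldlr with injury passed in both genotypes under every alternative run. Between injured genotypes, the members called higher and lower were 0 and 0, but 1 and 2 with DESeq2, 2 and 2 without a count filter, and 1 higher with the exact test. Without 1 library, members called higher ranged from 0 to 1 in this comparison, in contralateral nerves, and for the interaction, and those called lower in the interaction from 0 to 1. Pathway genes called ranged from 6 to 13 between injured groups (13 with all libraries), 4 to 16 between contralateral groups (14), and 1 to 4 for the interaction (4). Median-of-ratios size factors, DESeq2, and no count filter each called 1 member, Vldlr, lower in the interaction. With a replicate block, which pairs the nerves of 1 mouse between sides but joins different mice between genotypes, 8 pathway genes were called between injured groups, 3 members were higher and 2 lower in contralateral nerves (adding Lpl, Cd36, and Abca1), 7 members rose with injury in RaptorKOs, and 0 were higher and 1 lower in the interaction. The block turned the log2 fold changes of Apod (-0.0025) and Plin2 (0.039) between contralateral groups. Small differences changed sign when 1 library was left out. Between contralateral groups Lpl ranged from -0.43 to 1.79, Plin2 from -0.109 to 0.0619, and Apod from -0.0026 to 0.33. Between injured groups Lpl ranged from -0.13 to 1.01. With injury Lpl ranged from -0.77 to 0.73 in controls and -1.15 to 0.67 in RaptorKOs, and Lrp1 from -0.29 to 0.10 and -0.0057 to 0.32. In the interaction Lpl ranged from -1.57 to 0.64, Cd36 from -0.35 to 0.70, and Abca1 from -0.0644 to 0.317. In the comparisons that include RaptorKO contralateral 3, Lpl and Cd36 moved most without it. The cause of these and of the other changes was not tested.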
